A study of Mus musculus with 2 samples.

Results

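The 10 genes described here are known from cytotoxic and innate lymphocytes: the granule genes Gzma, Gzmb, Prf1 and Nkg7, the receptor gene Klrd1, the interleukin-2 receptor genes Il2ra, Il2rb and Il2rg, and the adaptor genes Fcer1g and Tyrobp. They were chosen by symbol from the 25791 symbols measured in each library, with earlier results of these libraries known, and Gzma was included because of its value in them. RNA had been sequenced from fetal thymic epithelial cells at 15 days post coitum, sorted as positive for EpCAM and negative for CD45 and PDGFRa. The library titled humanCD3eTg was made from mice of the strain C57BL/6J x CBA/J, and its title names a human CD3e transgene whose promoter and copy number the labels do not give. The library titled B6J came from C57BL/6 mice, and the study asks how the epithelium differs with and without thymocytes. The treatment label states that thymocytes were present for humanCD3eTg and absent for B6J, although mice with many copies of human CD3E are generally known to lack T cells and natural killer (NK) cells. The libraries are therefore called by their titles, and higher or lower below means in humanCD3eTg relative to B6J. Each group was 1 library, the number of embryos behind it is not stated, and strain and transgene cannot be told apart, so no difference could be tested against a spread between mice.

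Cytotoxic lymphocytes kill target cells by releasing granules in which perforin opens the way for granzymes, a family of serine proteases. NK cells and related innate lymphocytes read their targets through lectin-like receptors such as CD94, and several of their activating receptors signal through the small adaptors FcRgamma and DAP12, which myeloid cells also use. The high-affinity interleukin-2 receptor joins an alpha, a beta and a common gamma chain. The alpha chain, CD25, marks early thymocytes, and the common gamma chain is shared with the receptors for interleukins 4, 7, 9, 15 and 21.

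The values are FPKM, fragments per length of transcript and per total of mapped fragments, so levels can be compared between genes. Low FPKM values fell on steps that put about 15860000 fragments behind humanCD3eTg and 20050000 behind B6J. Fragment numbers below are estimates from these steps, and their 95% Poisson intervals cover counting error only. A gene at 0 is said to be listed at 0, since such a value may come from an estimate that failed. Differences are log2 ratios of humanCD3eTg over B6J on FPKM + 1, a scale that understates differences of low genes, and a gene was used if its mean over the libraries reached 1 FPKM. In all, 13493 genes were used, their median log2 ratio was -0.05, and 55.4% of them were lower by any amount. Lists of lymphocyte genes often passed this filter through B6J alone, which fixes their direction.

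The 10 genes did not behave as 1 group. Gzma, Nkg7, Il2ra and Il2rg were lower in humanCD3eTg, Fcer1g and Tyrobp stood slightly higher with overlapping counting intervals, and Gzmb, Prf1, Klrd1 and Il2rb were at or near 0 in both libraries. Only 6 of the 10 reached a mean of 1 FPKM, and 4 of these 6 were lower by at least 2-fold and none was higher by as much. Of all 13493 genes used, the shares were 4.47% for at least 2-fold lower and 2.10% for at least 2-fold higher. The 4 lower genes reached this mean through B6J alone, so that they had to be lower, and only Fcer1g and Tyrobp reached 1 FPKM in humanCD3eTg. The median log2 ratio was -3.05 over the 6 genes and -0.20 over all 10. In humanCD3eTg 6 of the 10 were listed at 0, of which 4 were above 0 in B6J and 2 were at 0 in both. Over all symbols 7.68% were listed at 0 in humanCD3eTg and above 0 in B6J, and 22.4% were at 0 in both. These genes were chosen with these values in view, so the shares are given as background only.

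**Figure D1:**
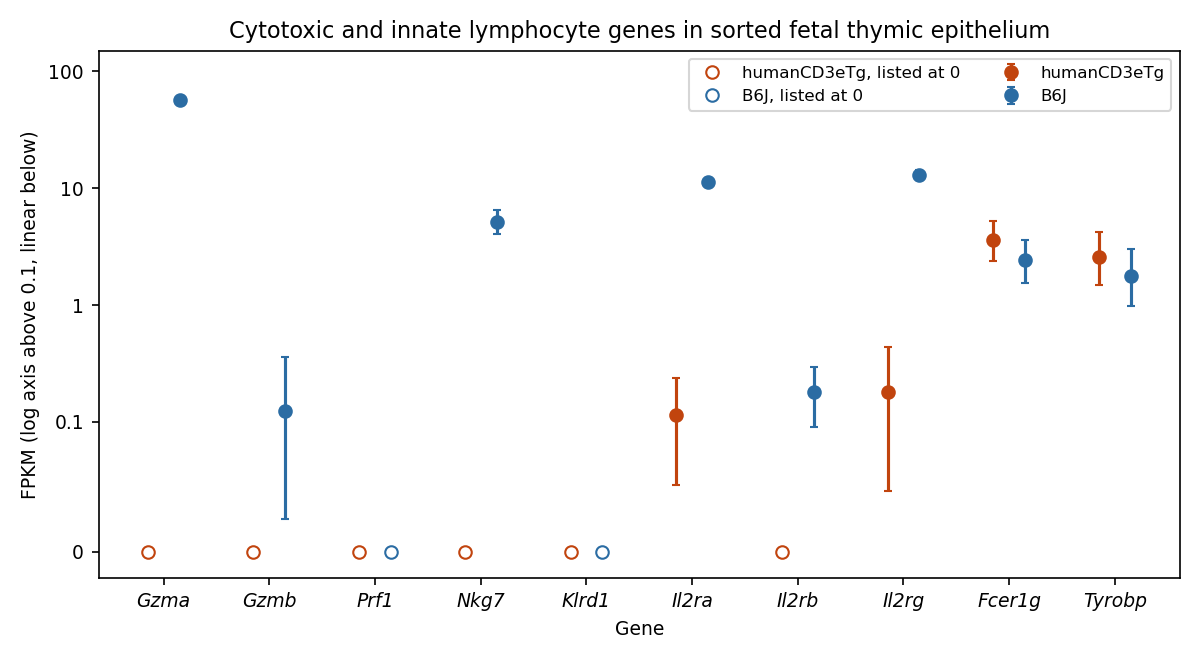
FPKM of the 10 genes in the humanCD3eTg library (left point of each pair) and the B6J library (right point), on an axis that is logarithmic above 0.1 and linear below. Bars are 95% Poisson intervals from estimated fragments, hidden by the point where narrow, and open points are values listed at 0, drawn without a bar; Gzma is at 0 in humanCD3eTg, against 56.6 FPKM in B6J, while the bars of Fcer1g and of Tyrobp overlap between the libraries.

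Gzma, which encodes the trypsin-like protease granzyme A, was listed at 0 in humanCD3eTg and stood at 56.6 FPKM in B6J. The value in B6J rests on about 892 fragments (95% Poisson interval 52.9 to 60.4 FPKM) and ranks 1611 among the 25791 symbols. For a transcript of this length, 1 fragment would have shown as 0.0802 FPKM in humanCD3eTg. The high value was that of 1 granzyme only. Gzmb, which encodes granzyme B, was listed at 0 in humanCD3eTg and at 0.123 FPKM in B6J, or about 3 fragments. Gzmm, which encodes granzyme M, stood at 1.63 FPKM in humanCD3eTg and 1.75 FPKM in B6J. The other 7 of the 10 granzyme genes were listed at 0 in both libraries, among them Gzmk and Gzmc.

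Prf1, which encodes perforin, was listed at 0 in both libraries, where 3 fragments would correspond to 0.0835 FPKM in humanCD3eTg and 0.0661 FPKM in B6J. Nkg7, which encodes a membrane protein of cytotoxic granules, was listed at 0 in humanCD3eTg and stood at 5.17 FPKM in B6J (about 70 fragments, 4.06 to 6.57 FPKM). Thus in B6J the granule genes Gzma and Nkg7 were present without detectable Prf1. Further genes for granule storage, release and inhibition included 12 that reached a mean of 1 FPKM (median log2 ratio -0.20). Of these, 3 were lower by at least 2-fold and none was higher by as much, against 4.47% and 2.10% of all used genes. Srgn, which encodes serglycin, the proteoglycan core that packs granule proteases, stood at 2.75 FPKM in humanCD3eTg and 41.0 FPKM in B6J. Serpinb9, which encodes an inhibitor of granzyme B, stood at 0.988 FPKM in humanCD3eTg and 3.30 FPKM in B6J, and the related Serpinb6b at 0.991 FPKM in humanCD3eTg and 4.04 FPKM in B6J. Serpinb9 and Serpinb6b, both among the 3 lower by at least 2-fold, passed the filter through B6J alone, which fixes their direction. Of the genes for granule release, Unc13d, a priming factor, stood at 0.637 FPKM in humanCD3eTg and 1.67 FPKM in B6J. Stx11, a syntaxin, stood at 31.3 FPKM in humanCD3eTg and 37.9 FPKM in B6J, and Rab27a, a small GTPase of secretion, at 3.91 FPKM in humanCD3eTg and 4.87 FPKM in B6J.

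Promoter windows of RefSeq (build GRCm38.p6, 250 bases before to 50 after the annotated start, while the notes on the libraries name mm9) were found for 7 of the 10 genes, and not for Klrd1, Il2rb and Tyrobp. Those of the 4 genes that were lower and of Fcer1g, which was not, are shown so that they can be compared, each 5′ to 3′ on the strand of the gene. Capitals mark matches to any of 4 motifs, searched on both strands with no overlap among the matches found. They were TGTGGT for RUNX factors, TTCNNNGAA for STAT factors, AGATAA for the GATA family and GGTGTGA for T-box factors.
Gzma, chr13:113100932-113101231, minus strand: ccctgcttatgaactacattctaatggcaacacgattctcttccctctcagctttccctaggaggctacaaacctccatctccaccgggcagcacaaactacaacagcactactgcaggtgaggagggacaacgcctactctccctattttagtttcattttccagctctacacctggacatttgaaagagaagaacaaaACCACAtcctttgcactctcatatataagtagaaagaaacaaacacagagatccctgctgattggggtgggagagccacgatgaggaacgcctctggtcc
Nkg7, chr7:43436888-43437187, plus strand: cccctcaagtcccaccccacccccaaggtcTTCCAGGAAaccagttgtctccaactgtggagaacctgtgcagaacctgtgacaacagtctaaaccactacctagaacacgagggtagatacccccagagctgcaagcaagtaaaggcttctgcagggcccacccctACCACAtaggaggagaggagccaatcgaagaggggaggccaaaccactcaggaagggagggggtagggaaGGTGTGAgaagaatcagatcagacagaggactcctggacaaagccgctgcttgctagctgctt
Il2rg, chrX:101268206-101268505, minus strand: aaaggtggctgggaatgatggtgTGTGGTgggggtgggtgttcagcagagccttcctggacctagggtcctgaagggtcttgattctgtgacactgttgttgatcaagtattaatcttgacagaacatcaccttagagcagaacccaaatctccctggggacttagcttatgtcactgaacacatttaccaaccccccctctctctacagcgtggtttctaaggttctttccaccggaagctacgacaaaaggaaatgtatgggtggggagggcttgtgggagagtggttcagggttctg
Il2ra, chr2:11642542-11642841, plus strand: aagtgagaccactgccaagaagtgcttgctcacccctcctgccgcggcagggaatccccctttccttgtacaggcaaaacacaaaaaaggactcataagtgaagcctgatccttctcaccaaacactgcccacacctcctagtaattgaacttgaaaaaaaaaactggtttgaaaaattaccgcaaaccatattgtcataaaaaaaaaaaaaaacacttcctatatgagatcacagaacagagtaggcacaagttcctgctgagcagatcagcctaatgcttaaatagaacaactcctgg
Fcer1g, chr1:171234300-171234599, minus strand: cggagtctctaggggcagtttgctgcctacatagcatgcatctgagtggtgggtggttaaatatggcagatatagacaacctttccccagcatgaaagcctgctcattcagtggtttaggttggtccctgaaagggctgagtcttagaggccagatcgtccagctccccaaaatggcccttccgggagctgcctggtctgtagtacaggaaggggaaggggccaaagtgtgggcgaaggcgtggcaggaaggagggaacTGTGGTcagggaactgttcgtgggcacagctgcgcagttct
A RUNX match was found in 6 of the 7 windows, all but that of Il2ra, and in 16.8% of all 32851 windows of the same length. In Gzma it lies on the minus strand of the gene from position -50, where the base just after the 250 bases before the start is position 0. Fcer1g holds a match as well, beyond its start, from position 9. Nkg7 also holds a STAT match and a T-box match, which 8.30% and 3.98% of all windows hold, and Gzmb holds a STAT match. The GATA motif, found in 11.2% of all windows, was in none of the 7, and the Il2ra window held none of the 4 motifs. A match is one of letters only. In 5 of the 7 windows the last 30 bases lay in an annotated transcript of the gene, and in the others they did not.

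Most receptor genes of NK cells were at or near 0. Klrd1, which encodes CD94, was listed at 0 in both libraries, where 3 fragments would correspond to 0.267 FPKM in humanCD3eTg and 0.211 FPKM in B6J. All 29 NK receptor symbols were found, and 15 of them were listed at 0 in both libraries. None reached 1 FPKM in humanCD3eTg, and 2 did in B6J. Those 2 encode receptors that T cells are known to carry too: Slamf6, a SLAM family receptor, at 0.0282 FPKM in humanCD3eTg and 2.83 FPKM in B6J, and Cd96, listed at 0 in humanCD3eTg and at 1.09 FPKM in B6J. Cd7 and Cd160, also not specific to NK cells, stood at 0 and 0.175 FPKM in humanCD3eTg and at 0.839 and 0.758 FPKM in B6J. Of the genes that define NK cells, Ncr1, which encodes NKp46, was listed at 0 in humanCD3eTg and at 0.0397 FPKM in B6J, and Klrb1c, which encodes NK1.1, at 0 in humanCD3eTg and 0.0826 FPKM in B6J. Klrk1, which encodes NKG2D, was listed at 0 in humanCD3eTg and at 0.0163 FPKM in B6J, and Klrc1, the partner of CD94, at 0 in both.

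Il2ra and Il2rg carried the interleukin-2 receptor difference, and Il2rb was low in both libraries. Il2ra, which encodes the alpha chain, stood at 0.116 FPKM in humanCD3eTg and 11.4 FPKM in B6J. About 8 fragments lie behind the value in humanCD3eTg (0.0518 to 0.237 FPKM) and about 959 behind the value in B6J (10.7 to 12.1 FPKM), and the log2 ratio was -3.47. Il2rg, which encodes the common gamma chain, stood at 0.179 FPKM in humanCD3eTg (about 4 fragments, 0.0471 to 0.442 FPKM) and 13.02 FPKM in B6J (about 381 fragments, 11.7 to 14.4 FPKM), a log2 ratio of -3.57. The counting intervals of both genes are far apart between the libraries. These fragment numbers assume the longest coding transcript, and with the shortest Il2ra would have about 1 fragment in humanCD3eTg and 183 in B6J, and Il2rg about 1 fragment in humanCD3eTg and 101 in B6J. Il2rb, which encodes the beta chain used by the interleukin-2 and interleukin-15 receptors, was listed at 0 in humanCD3eTg and at 0.180 FPKM in B6J, or about 14 fragments. In B6J the alpha and gamma chains thus stood at similar levels per length and the beta chain well below both.

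The partner chains of the common gamma chain divided by level. Il7r, which encodes the interleukin-7 receptor alpha chain of lymphoid progenitors, stood at 0.00323 FPKM in humanCD3eTg and 1.14 FPKM in B6J. Il9r and Il21r, also receptor chains, stood at 0.0876 and 0.157 FPKM in humanCD3eTg and at 1.18 and 1.12 FPKM in B6J. These 3 genes had a mean under 1 FPKM and are in no count. Il15ra, which encodes the chain that presents interleukin-15, stood higher in both libraries, at 28.7 FPKM in humanCD3eTg and 54.6 FPKM in B6J, and Il4ra, a receptor chain of interleukins 4 and 13, at 6.31 FPKM in humanCD3eTg and 14.2 FPKM in B6J (log2 ratio -1.06).

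Among the ligands, Il7 stood at 110.6 FPKM in humanCD3eTg and 113.0 FPKM in B6J, and Il15 at 11.0 FPKM in humanCD3eTg and 12.9 FPKM in B6J. Tslp, a cytokine gene of epithelium, stood at 0.956 FPKM in humanCD3eTg and 0.544 FPKM in B6J, and Il4 at 1.75 FPKM in humanCD3eTg and 0.523 FPKM in B6J. Il2, Il9 and Il21 were listed at 0 in both. Without Il2ra and Il2rg, 6 genes of this family of 16 were used, with a median log2 ratio of -0.20. Of these, 1 was lower by at least 2-fold and none was higher by as much, against 4.47% and 2.10% of all used genes.

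Downstream of these receptors, 9 of 11 JAK-STAT5 genes were lower in humanCD3eTg, 3 of them at least 2-fold, and 2 were higher, with a median log2 ratio of -0.49. All 11 reached 1 FPKM in both libraries, and of all used genes 55.4% were lower by any amount and 4.47% at least 2-fold. Jak3, the kinase that binds the common gamma chain, stood at 5.62 FPKM in humanCD3eTg and 24.8 FPKM in B6J (-1.96). Jak1, the kinase of the partner chains, stood at 41.0 FPKM in humanCD3eTg and 57.1 FPKM in B6J. Stat5a, a transcription factor these kinases activate, stood at 2.37 FPKM in humanCD3eTg and 6.61 FPKM in B6J, and Socs3, a feedback inhibitor, at 56.7 FPKM in humanCD3eTg and 165.0 FPKM in B6J. Cish, a known STAT5 target, stood at 68.5 FPKM in humanCD3eTg and 84.5 FPKM in B6J, and Socs2, another feedback inhibitor, was among the higher genes, at 6.03 FPKM in humanCD3eTg and 3.98 FPKM in B6J. In epithelium many of these genes are also used by receptors outside this family.

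**Figure D2:**
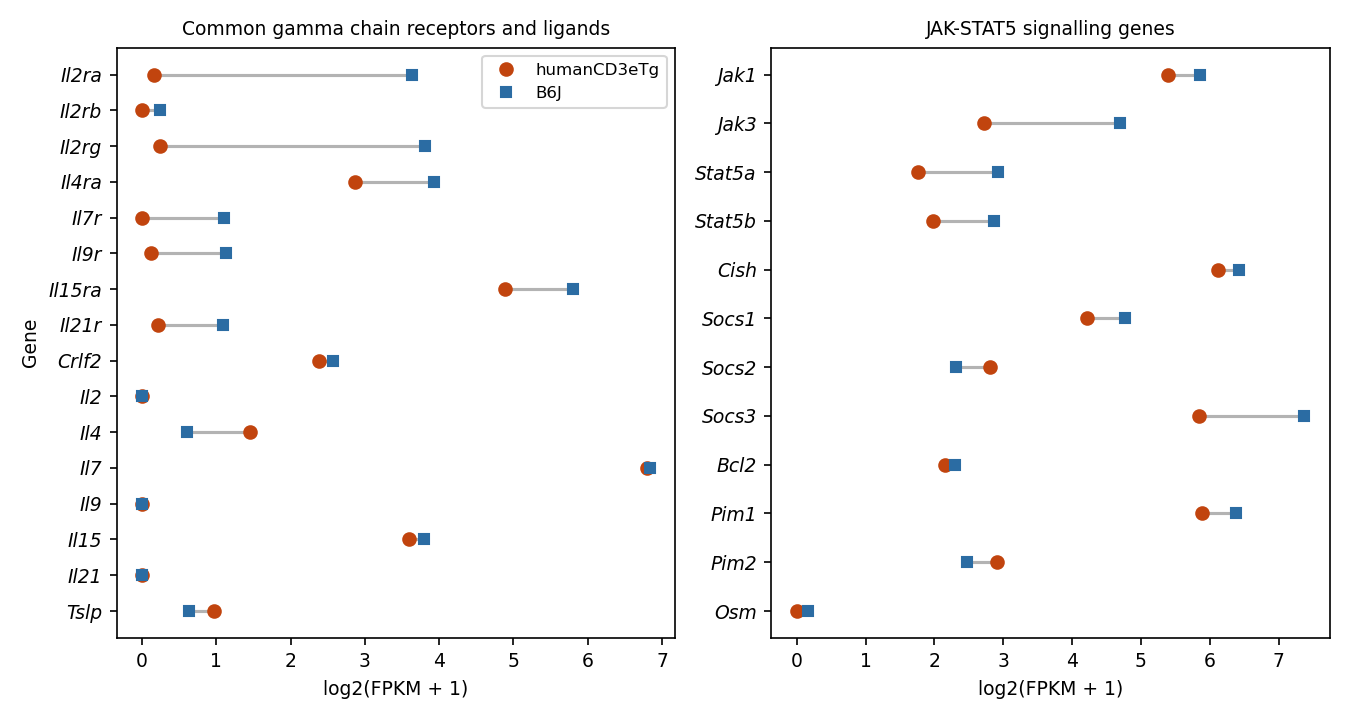
log2(FPKM + 1) of the genes for common gamma chain receptors and ligands (left panel) and of JAK-STAT5 signalling genes (right panel), with circles for humanCD3eTg, squares for B6J and a line joining the values of a gene. The longest lines in the left panel are those of Il2rg and Il2ra, with log2 ratios of -3.57 and -3.47, while the circle and square of Il7 lie close together at 110.6 FPKM in humanCD3eTg and 113.0 FPKM in B6J.

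The adaptor genes Fcer1g and Tyrobp stood at similar levels in both libraries. Fcer1g, which encodes the FcRgamma chain, stood at 3.61 FPKM in humanCD3eTg (about 27 fragments, 2.37 to 5.24 FPKM) and 2.42 FPKM in B6J (about 23 fragments, 1.54 to 3.64 FPKM), a log2 ratio of 0.43. Tyrobp, which encodes DAP12, stood at 2.59 FPKM in humanCD3eTg (about 16 fragments, 1.49 to 4.23 FPKM) and 1.78 FPKM in B6J (about 14 fragments, 0.986 to 3.03 FPKM), a log2 ratio of 0.37. The counting intervals of each gene overlap between the libraries. The differences, 1.49-fold for Fcer1g and 1.46-fold for Tyrobp, were not tested. Hcst, which encodes the related adaptor DAP10, was listed at 0 in humanCD3eTg and at 0.630 FPKM in B6J.

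Most genes of proximal receptor signalling were lower. Cd247, which encodes the zeta chain, an adaptor with the same kind of activation motif, stood at 2.54 FPKM in humanCD3eTg and 6.42 FPKM in B6J. The kinase gene Lck stood at 1.08 FPKM in humanCD3eTg and 20.5 FPKM in B6J, and the scaffold gene Lat at 0.184 FPKM in humanCD3eTg and 12.7 FPKM in B6J. Lcp2, which encodes the scaffold SLP-76, stood at 0.662 FPKM in humanCD3eTg and 2.62 FPKM in B6J. Of the 9 used genes of this list other than Fcer1g and Tyrobp, 8 were lower, 5 of them at least 2-fold. Over all used genes, 55.4% were lower and 4.47% at least 2-fold lower. Genes such as Lat and Lcp2 passed the filter through B6J alone, which fixes their direction. Lck, Lat and Cd247 also count among the T lineage genes below. Fyn, another kinase of the same family as Lck, was higher, at 23.0 FPKM in humanCD3eTg and 16.3 FPKM in B6J.

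Among the 19 symbols found of a list of receptors that pair with FcRgamma or DAP12, none reached a mean of 1 FPKM. The highest was Fcgr3, a receptor for antibodies, at 0.824 FPKM in humanCD3eTg and 1.13 FPKM in B6J. Clec4n, the lectin receptor Dectin-2, stood at 0.733 FPKM in humanCD3eTg and was listed at 0 in B6J. The mast cell receptor genes Fcer1a and Ms4a2 were listed at 0 in both. Macrophage genes, beside which Fcer1g and Tyrobp are usually found, summed to 41.6 FPKM in humanCD3eTg and 46.0 FPKM in B6J over 16 symbols, and of 6 used 3 were higher and 3 lower. Of all 16, 6 were higher and 10 lower. Cd68, a lysosomal protein gene, stood at 5.33 FPKM in humanCD3eTg and 4.04 FPKM in B6J, and Csf1r, the receptor of macrophage growth factor, at 1.24 FPKM in humanCD3eTg and 0.667 FPKM in B6J. C1qb, a complement gene, stood at 2.13 FPKM in humanCD3eTg and 0.524 FPKM in B6J, whereas C1qa stood at 0.718 FPKM in humanCD3eTg and 1.25 FPKM in B6J, and C1qc at 0.0742 FPKM in humanCD3eTg and 1.59 FPKM in B6J. Mpeg1, another macrophage gene, stood at 0.519 FPKM in humanCD3eTg and 3.26 FPKM in B6J, and the protease gene Ctss at 0.877 FPKM in humanCD3eTg and 3.73 FPKM in B6J. The part of macrophages in the levels of Fcer1g and Tyrobp was not tested.

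**Figure D3:**
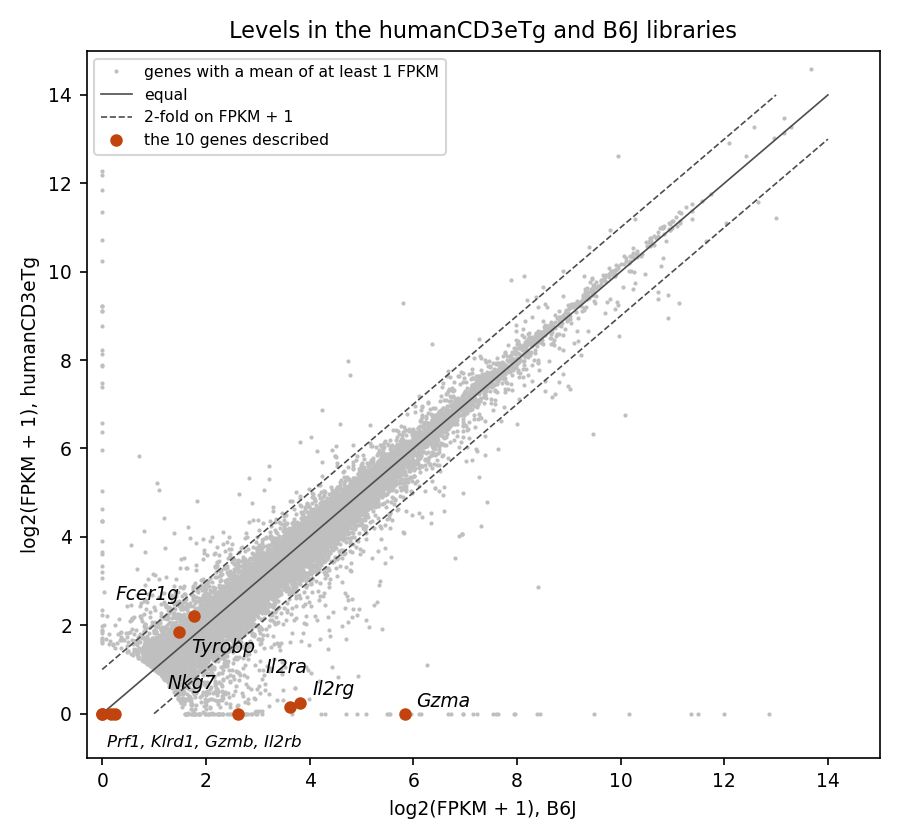
log2(FPKM + 1) of each gene used in B6J (horizontal) and humanCD3eTg (vertical), with the 10 genes described in colour, the line of equal values and dashed lines at a 2-fold difference on FPKM + 1. Gzma, Il2rg, Il2ra and Nkg7 lie along the bottom, below the lower dashed line, and Fcer1g and Tyrobp lie just above the line of equal values.

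Genes with a pattern most like that of these genes were named by a fixed rule. Leaving out small RNA and predicted genes, 1190 genes were listed at 0 in humanCD3eTg and above 0 in B6J, and Gzma had the highest B6J value of them. The next were Cd3g and Cd3d, chains of the T cell receptor complex, at 45.5 and 18.7 FPKM in B6J, Ubd, a ubiquitin-like gene, at 17.7 FPKM, Il4i1, an amino acid oxidase gene, at 11.7 FPKM, and Cysltr2, a leukotriene receptor gene, at 6.77 FPKM. Nkg7 came at place 13. Over log2(FPKM + 1) in the 2 libraries, Lat was the nearest gene to Il2rg (distance 0.03), followed by Il2ra itself (0.20) and Calcb, a neuropeptide gene (0.20). The nearest to Il2ra were Il4i1 (0.16), Lat (0.17) and Il2rg (0.20). Fcer1g lay beside Zbtb44, Gm8615 and Hist1h2ak, at distances of at most 0.02, and Tyrobp beside Gen1, Kdsr and Ripply3, at distances of at most 0.03. Where many genes have similar levels in both libraries, such closeness is common.

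Most used transcription factors that direct innate and cytotoxic lymphocytes lay within 2-fold on FPKM + 1. This scale understates the differences of low genes such as Runx3. Of 11 used, 8 were lower, 1 of them at least 2-fold, and 3 were higher (median log2 ratio -0.22). Among all used genes 55.4% were lower, 4.47% at least 2-fold. The 1 factor lower by at least 2-fold was Tcf7, of early T cells and innate lymphoid progenitors. It stood at 3.57 FPKM in humanCD3eTg and 27.2 FPKM in B6J. Runx3, a factor of cytotoxic lineages, stood at 0.732 FPKM in humanCD3eTg and 2.36 FPKM in B6J, and Tbx21, which encodes T-bet, at 0.913 FPKM in humanCD3eTg and 1.34 FPKM in B6J. Runx3 and Tbx21 passed the filter through B6J alone, which fixes their direction. Eomes, the related factor of NK cells, was low in both, at 0.0419 FPKM in humanCD3eTg and 0.186 FPKM in B6J. Id2, which innate lymphocytes need but other cells also express, stood at 58.7 FPKM in humanCD3eTg and 55.8 FPKM in B6J.

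Of 14 genes of lymphoid tissue inducer and other innate lymphoid cells, 4 were used (median log2 ratio -1.16). All 4 were lower, where 55.4% of all used genes were lower. The 2 that were lower by at least 2-fold, Tnfsf11 and Ltb, passed the filter through B6J alone. Tnfsf11, which encodes RANKL, stood at 0.404 FPKM in humanCD3eTg and 3.0 FPKM in B6J, and Ltb, which encodes lymphotoxin beta, at 0.708 FPKM in humanCD3eTg and 5.27 FPKM in B6J. Il1r1, an interleukin-1 receptor gene that other cells use too, stood at 7.48 FPKM in humanCD3eTg and 13.9 FPKM in B6J. The cytokine genes Il17a, Il17f and Il22 were listed at 0 in both. Of 17 symbols for gamma delta T cells 5 were found, none of them a receptor chain. Cd27, a co-stimulatory receptor of T cells, stood at 0.0460 FPKM in humanCD3eTg and 7.09 FPKM in B6J. Sox13, a factor of gamma delta T cells that other tissues express too, stood at 6.63 FPKM in humanCD3eTg and 4.56 FPKM in B6J.

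Some marker lists of other cells were lower as Gzma, Nkg7, Il2ra and Il2rg were, chiefly those of T lineage, leukocytes and endothelium. Used macrophage, mast cell and dendritic cell genes divided, with 1 of 2 dendritic cell genes lower (median log2 ratio 0.08). Of all used genes, 55.4% were lower and 4.47% at least 2-fold lower. All 13 used T lineage genes were lower, 11 of them at least 2-fold (median log2 ratio -2.63), and the 19 found summed to 14.5 FPKM in humanCD3eTg and 192.7 FPKM in B6J, with Cd3d and Cd3g listed at 0 in humanCD3eTg. These values run opposite to the treatment labels, and 7 of the 13 reached 1 FPKM in humanCD3eTg, against all 13 in B6J. All 16 used pan-leukocyte genes were lower, 13 of them at least 2-fold (-1.87), but only 7 of the 16 reached 1 FPKM in humanCD3eTg. The 18 found summed to 103.1 FPKM in humanCD3eTg and 259.4 FPKM in B6J. Arhgdib (64.9 FPKM in humanCD3eTg, 117.4 FPKM in B6J) and Itgb7 (20.9 and 23.9 FPKM) made up most of the humanCD3eTg sum. Ptprc, which encodes the CD45 used to sort the cells, stood at 0.358 FPKM in humanCD3eTg and 4.18 FPKM in B6J. The 29 NK receptor genes summed to 0.256 FPKM in humanCD3eTg and 6.09 FPKM in B6J. Most of this B6J sum came from Slamf6, Cd96, Cd7 and Cd160, which are not specific to NK cells. Of 12 mast cell genes found, 6 were listed at 0 in both libraries and 2 were used, Kit, a receptor that other cells also carry, at 13.3 FPKM in humanCD3eTg and 4.01 FPKM in B6J, and Hdc, which makes histamine, at 0.232 FPKM in humanCD3eTg and 3.97 FPKM in B6J. Endothelial genes were lower as well, all 10 used (-1.61), but only 5 of these reached 1 FPKM in humanCD3eTg. The others passed the filter through B6J alone, which fixes their direction. The 4 used erythroid genes had a median log2 ratio of -0.73. The 14 thymic epithelial genes summed to 8359 FPKM in humanCD3eTg and 8339 FPKM in B6J, and all reached 1 FPKM in both. Of these, 11 were lower, 2 of them at least 2-fold (Foxn1 at 43.7 FPKM in humanCD3eTg and 91.1 FPKM in B6J, Krt14 at 9.05 FPKM in humanCD3eTg and 22.9 FPKM in B6J). The other 3 were higher, and Krt5 was so by at least 2-fold, at 955.5 FPKM in humanCD3eTg and 280.2 FPKM in B6J. The part of these other cells in the differences was not tested, and in such bulk samples fewer cells of a type and less RNA per cell cannot be told apart.

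**Figure D4:**
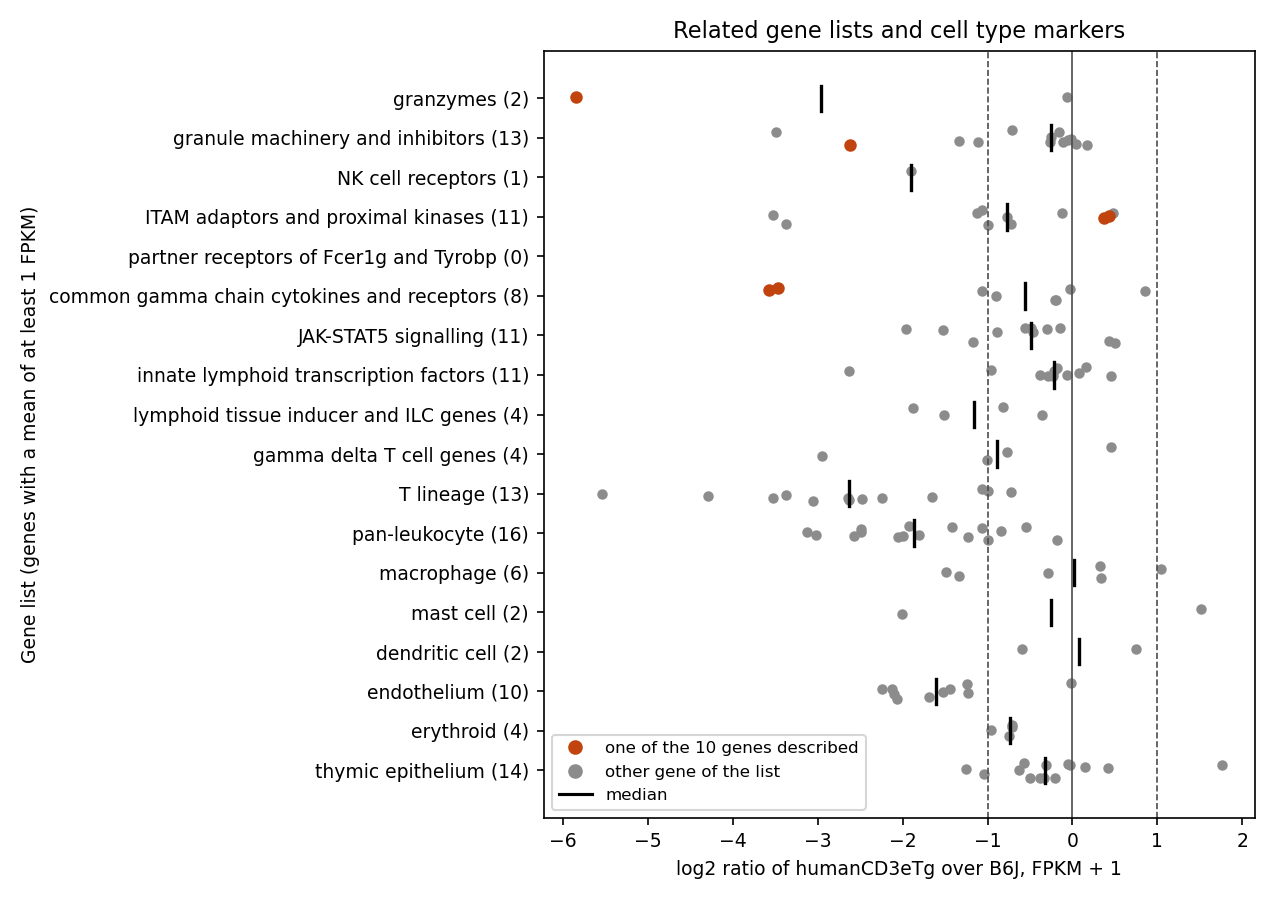
log2 ratios of humanCD3eTg over B6J on FPKM + 1 for the genes of each list whose mean reached 1 FPKM (their number in brackets), with the genes described here in colour, medians as vertical bars and dashed lines at 2-fold. Gzma, Nkg7, Il2ra and Il2rg lie within the range of the T lineage genes or just beyond it, and Fcer1g and Tyrobp lie to the right of 0, near several macrophage genes.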

How the data were processed

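RNA of sorted fetal thymic epithelial cells was sequenced as 1 library per group; total RNA and a TruSeq kit were used, per the labels. The authors deposited 1 FPKM value for each of 25791 symbols and library. Per the submitters' processing notes, TopHat2 2.0.8, Bowtie2 2.1.0, Cufflinks 2.1.1 and build mm9 were used, in roles that are not stated. Annotation and strand use are not given in the sources read, so overlapping genes cannot be separated. Groups follow the titles. The genes, lists and rules were chosen with earlier results of these data known.

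Log2 ratios were computed on FPKM + 1 for genes whose mean reached 1 FPKM, and 0 means at most 0.001 FPKM. With 1 library per group no test was run. The value of 1 fragment was searched between 0.02 and 0.12 FPKM at 1 kb in low single-transcript genes, with lengths from GENCODE M21 less 210 bases. It was 0.0631 in humanCD3eTg and 0.0499 in B6J. Of 488 and 671 genes, 55.7% and 56.3% lay at most 0.1 from a whole number of fragments (20% by chance), so fragments are approximate and no count test was run. The longest coding transcript was used for each gene. The computation was tested on simulated data. Named genes are the 10 genes, defining markers, up to 3 genes with the largest ratio in each list, and those most alike in level. Further genes of these lists were named after their values were seen. Another gene of these lists is not reported here. Python 3.11.15, numpy 2.4.6, pandas 2.3.3, scipy 1.17.1 and matplotlib 3.10.9 were used.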

Additional observations from a re-analysis of the deposited data

How the results depend on the processing

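The count of 4 genes at least 2-fold lower was 4 under a pseudocount of 0.1 or 5, no filter, centring on the median, quantile normalization, limits of 1.5-fold and 4-fold, and totals taken without genes of haemoglobin, mitochondria and ribosomes. It was 3 when the mean had to reach 5 FPKM, where only Gzma, Il2ra and Il2rg were used. With a pseudocount of 5, Nkg7 only just passed the limit, at a log2 ratio of -1.02. The median log2 ratio of -3.05 was -5.64 with a pseudocount of 0.1, -1.35 with 5, -0.20 with no filter (all 10 genes), -3.57 when the mean had to reach 5 FPKM and -1.55 without genes listed at 0 in a library. It kept its sign throughout, but the 4 lower genes passed the filter through B6J alone, so this was largely fixed beforehand. The log2 ratios of Fcer1g and Tyrobp were positive under all 6 alternatives in which they could be used, at 0.21 to 0.57 and 0.16 to 0.52. A change of pseudocount or filter cannot change the sign of a gene's ratio. Only centring, quantile normalization and the changed totals could have done so. Over these settings the share of all used genes at least 2-fold lower lay between 1.65% and 6.69% at a 2-fold limit. The share lower by the limit was 10.9% at 1.5-fold and 1.27% at 4-fold.

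Depth limits the low values: with the shortest coding transcript, Il2ra and Il2rg would rest on about 1 fragment each in humanCD3eTg, and on about 183 and 101 in B6J. No paired analysis was possible because each group is 1 library.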
